A study of Oryza sativa with 16 samples.

Results

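The chromosome 9 block is a set of 96 neighbouring rice loci, numbered from LOC_Os09g33820 to LOC_Os09g35940, whose transcripts were counted in emerging panicles of the drought-tolerant line DTY-IL and its recurrent parent Swarna. The count table listed 115 loci in this range. Of these, 15 had fewer than 10 counts in total over the 15 libraries used, and 4 were left out by name (LOC_Os09g35010, LOC_Os09g35020, LOC_Os09g35030 and LOC_Os09g35790). The 96 members stood among 33698 loci that passed the same count minimum in the whole genome. The block was chosen by measured values, namely the many differences in counts between the genotypes at its loci in these libraries, so every DTY-IL to Swarna difference given here is a description of that choice and is printed without a p-value. Where the call rule is applied to such a difference, it sorts loci and tests nothing. The drought comparisons were not used in picking it, and they were tested. Those within 1 genotype share libraries with the genotype differences, so their results are not independent of the choice. The drought effect averaged over both genotypes is the main test, because genotype differences largely cancel in it.

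DTY-IL is an introgression line: by repeated crossing to Swarna, fragments of the drought-tolerant donor N22 were placed in the genetic background of Swarna, a widely grown indica variety that is susceptible to drought. Libraries came from panicles of DTY-IL under reproductive-stage drought stress (RDS), well-watered DTY-IL, Swarna under RDS and well-watered Swarna. There were 4 libraries per group by the labels. By the study's methods these were independent replicates, with a single plant kept in each pot. RDS pots were kept at 75% of the water the soil can hold (its field capacity) for 9 days, then at 50% for 3 more, with panicles taken on day 12. DTY-IL is a single line, so a difference from Swarna cannot be told apart from the effect of any other donor fragment that the line carries.

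In an introgression line, loci inside a donor fragment carry the donor's alleles, promoters and neighbouring sequence, and loci outside it carry those of the recurrent parent. A run of neighbouring loci with different transcript levels is therefore a pattern often looked at in such lines. The identifiers follow the rice genome annotation RGAP 7, in which the number of a locus gives its order along the chromosome. The sources used here pair none of the 96 identifiers with a gene name, so the members are described by locus, position in the order and transcript level. Sequences and coordinates were not used here.

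The numbering of the members fell into 3 runs. The lower run went from LOC_Os09g33820 to LOC_Os09g34340 (48 members), the middle run from LOC_Os09g34847 to LOC_Os09g35000 (16 members) and the upper run from LOC_Os09g35540 to LOC_Os09g35940 (32 members). Most members were well covered. The median member had 319 normalized counts (counts scaled to a common library size), against 155 over all tested loci, and the central 50% of the members lay between 46.3 and 1019. The spread between libraries of 1 group was also smaller, with a median SD of log2(normalized count + 1) of 0.30 for the members and 0.48 over all tested loci. The lowest total of any member was 31 counts, at LOC_Os09g35770. Just under the minimum, LOC_Os09g35870 had 7 counts, and the other 14 loci below it had fewer.

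The 15 libraries held 24677520 to 31080042 estimated counts each, of which the members took 0.232% to 0.293%. Replicate numbers given here are those of the count columns, which are not the numbers in the sample titles. Swarna control replicate 3 was left out by the rule that defines the block, except in fits named as holding all 16 libraries. In that library only 20496 loci reached 10 counts, against 24398 to 26160 in the others, and the members took 0.177% of its counts. DTY-IL control replicate 3 also stood apart: it was the highest of the 15 libraries for 27 of the 96 members (28.1%) and for 16.5% of all tested loci. Its sum of the leaf marker loci, 1740 CPM, was the lowest of its group. Its summed level of 4 tapetum and anther loci was 436 CPM (counts scaled to a fixed library total), against 36.2 to 91.2 CPM in the other DTY-IL control libraries. Most of that sum came from 1 locus, LOC_Os11g37280, at 329 CPM. All 8 floral organ identity loci listed as panicle markers were detected in every group, with summed levels of 731 to 965 CPM in DTY-IL under RDS, 1030 to 1340 CPM in DTY-IL control, 547 to 755 CPM in Swarna under RDS and 1240 to 1430 CPM in Swarna control.

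Between the genotypes, the block was a mosaic and not a uniform shift. With the call rule used throughout, an adjusted p-value of at most 0.05 together with a log2 fold change of at least 1 in either direction, 12 members passed between DTY-IL and Swarna under RDS, 10 of them with the higher level in DTY-IL and 2 with the higher level in Swarna. Over all tested loci 3.36% passed, 2.09% with the higher level in DTY-IL and 1.26% with the higher level in Swarna. Under control 9 members passed, 8 higher in DTY-IL and 1 lower, and over all tested loci 1.1% passed, 0.599% higher and 0.502% lower. This count was 5 without any 1 of the 3 Swarna control libraries. Nothing is read from the distance to these shares, because the members were chosen for it. All 9 members that passed under control also passed under RDS, in the same direction (0.822% over all tested loci), so that 12 passed under at least 1 treatment (3.64% over all). LOC_Os09g34890 and LOC_Os09g34920 passed under RDS alone with higher levels in DTY-IL, and LOC_Os09g33820 passed under RDS alone with a lower level in DTY-IL. The other members passed under neither treatment, and the median absolute genotype difference of all 96, averaged over both treatments, was 0.33 on the log2 scale, against 0.26 over all tested loci. The smaller spread of the well-covered members stands beside these counts, and its part in them was not tested.

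**Figure D1:**
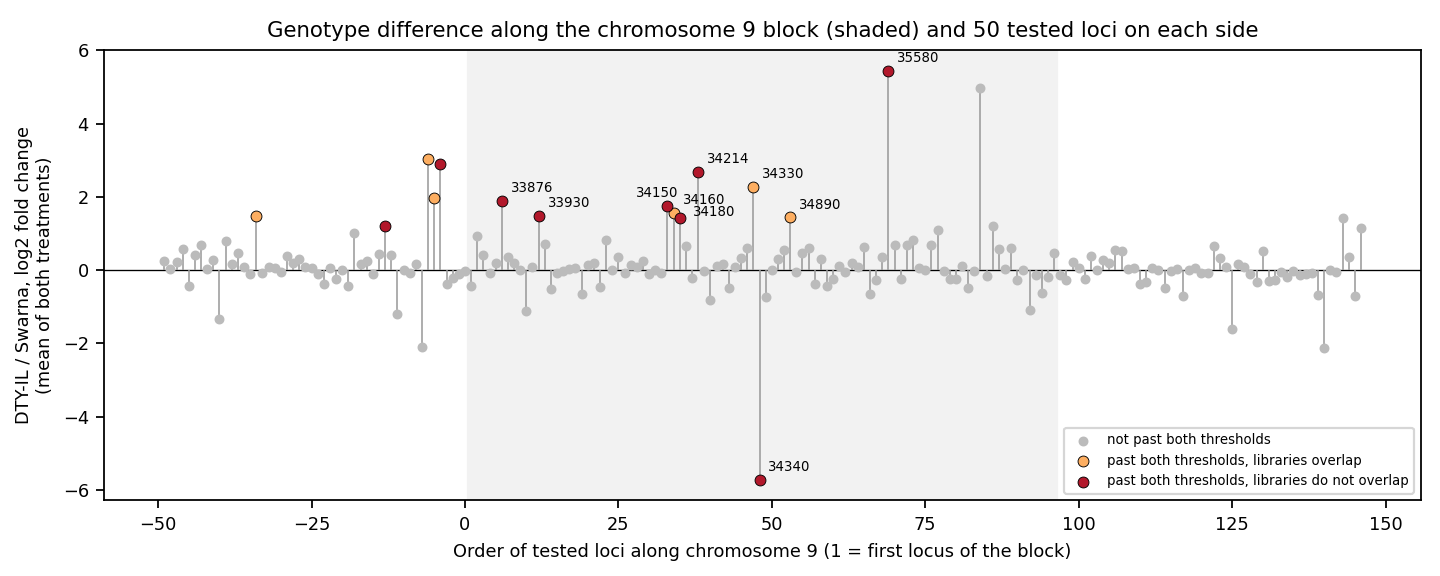
Genotype difference along chromosome 9. The horizontal axis gives the order of tested loci, with 1 at the first member, and the vertical axis the fitted log2 fold change of DTY-IL over Swarna averaged over both treatments. The shaded span holds the 96 members and 50 tested loci are drawn on each side. Orange points passed the call rule with overlapping libraries, and dark red points passed it with no overlap between the 8 DTY-IL and 7 Swarna libraries. Differences of either size sit beside members near 0, and LOC_Os09g34340 is the only labelled locus below the zero line (-5.73). The value of LOC_Os09g35580 rests on few Swarna counts, and the grey point near 5 is LOC_Os09g35770, which had no Swarna count.

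Averaged over both treatments, 10 members passed the call rule (9 higher and 1 lower in DTY-IL), of which 8 were in the lower run, 1 in the middle run and 1 in the upper run. The lower run holds 48 of the 96 members, and its median absolute difference (0.29) was no larger than that of the middle run (0.31) or the upper run (0.42), so the calls came from a few loci. How the calls spread over the runs was not tested. Over all tested loci 2.42% passed, 1.47% higher and 0.95% lower. The stretch from LOC_Os09g34150 to LOC_Os09g34340, which was singled out after its values were seen, held 16 members and 6 of the 10. The pattern did not start sharply at the edge given by the rule. Among the 50 tested loci just before the block 5 passed the same rule, a share of 10%, and among the 50 just after it 0 passed. On the rest of chromosome 9 together, 60 of 1831 loci passed (3.28%). At the edges themselves, the first member LOC_Os09g33820 and the nearest tested locus outside, LOC_Os09g33810, had averaged log2 differences of -0.44 and -0.03. The last member LOC_Os09g35940 and the next tested locus LOC_Os09g35960 had differences of 0.47 and -0.13.

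In 7 members, all 8 DTY-IL libraries lay on one side of all 7 Swarna libraries, 6 of them higher and 1 lower in DTY-IL. Over all tested loci 1.3% were apart in this way, 0.721% higher and 0.576% lower. These 7 members are described first. Reads of both genotypes were assigned to transcripts of another variety, Nipponbare. A lower transcript level and a sequence that takes up fewer reads, because it is missing or has diverged, cannot be told apart for any of them.

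LOC_Os09g35580, in the upper run, had few counts or none in Swarna. It had 68.6, 70.7, 73.2 and 34.5 normalized counts in DTY-IL under RDS, 124, 74.6, 85.1 and 99.98 in DTY-IL control, 0.00, 2.06, 0.00 and 1.10 in Swarna under RDS and 3.05, 4.82 and 1.98 in Swarna control. Every DTY-IL library was at least several-fold above every Swarna library, and 2 Swarna libraries under RDS had no count at all. Under RDS the summed raw counts were 250 in DTY-IL and 3 in Swarna, a ratio of 79.0 after scaling for library size. The 95% interval for counting error was 26.7 to 386. It leaves out the spread between libraries and the choice of the locus for its difference, so it tests nothing. Under control the fitted log2 fold change was 4.81 ± 0.54 (SE).

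LOC_Os09g34340, the last locus of the lower run, showed the reverse. It had 10.2, 12.2, 11.7 and 10.5 normalized counts in DTY-IL under RDS and 5.51, 3.64, 6.62 and 4.49 in DTY-IL control, against 350.4, 313, 445 and 507 in Swarna under RDS and 471, 436 and 315 in Swarna control. The level was low in all 8 DTY-IL libraries and high in all 7 Swarna libraries, and within DTY-IL the drought libraries lay above the control libraries. The log2 fold changes were -5.16 ± 0.24 under RDS and -6.29 ± 0.26 under control, and averaged over both treatments the level was 53-fold lower in DTY-IL. Its immediate neighbour in the order, LOC_Os09g34330, differed in the other direction.

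LOC_Os09g34214 had 127, 348, 489 and 143 normalized counts in DTY-IL under RDS, 76.2, 106, 83.2 and 179 in DTY-IL control, 52.5, 31.9, 49.9 and 19.9 in Swarna under RDS and 22.4, 24.1 and 10.9 in Swarna control. The DTY-IL libraries under RDS were widely spread, and the lowest of all 8 DTY-IL libraries still lay above the highest Swarna library. The averaged fold was 6.43, with log2 values of 2.84 ± 0.48 under RDS and 2.53 ± 0.55 under control. The left-out Swarna control library held 247 normalized counts of this locus, inside the DTY-IL range, and with all 16 libraries in the fit the averaged log2 difference was 1.70.

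LOC_Os09g33876 had 484, 737, 729 and 406 normalized counts in DTY-IL under RDS, 537, 507, 231 and 555 in DTY-IL control, 90.9, 128, 105 and 99.4 in Swarna under RDS and 171, 206 and 169 in Swarna control. DTY-IL control replicate 3 was the low library of its group, and it was still above all Swarna libraries. The log2 difference was 2.47 ± 0.28 under RDS and 1.33 ± 0.29 under control.

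LOC_Os09g34150 had 163, 243, 206 and 194 normalized counts in DTY-IL under RDS, 151, 150.02, 90.7 and 111 in DTY-IL control, 47.5, 89.4, 45.7 and 35.3 in Swarna under RDS and 41.7, 42.4 and 38.7 in Swarna control. The margin was narrow, since the lowest DTY-IL library nearly met the highest Swarna library. The averaged fold was 3.36, and the log2 difference was alike under RDS (1.88 ± 0.28) and under control (1.62 ± 0.31).

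LOC_Os09g33930 was the most abundant of the 7. It had 3672, 4981, 4804 and 4590.5 normalized counts in DTY-IL under RDS, 2268, 2786, 2592 and 2921 in DTY-IL control, 1814, 1964, 1668 and 1880.3 in Swarna under RDS and 800.0, 850.5 and 833 in Swarna control. The 4 groups formed 4 separate levels, and each drought group lay above its own control group. The genotype difference was 2.8-fold averaged over the treatments. The log2 drought effect averaged over the genotypes was 0.96 ± 0.09 (adjusted p = 1.585e-06), just under the fold of the call rule.

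LOC_Os09g34180 had 238, 222, 196 and 206 normalized counts in DTY-IL under RDS, 311, 426, 581 and 471 in DTY-IL control, 70.7, 89.4, 88.2 and 61.8 in Swarna under RDS and 184, 165 and 176 in Swarna control. Again the groups were ordered without overlap between the genotypes, although the DTY-IL libraries under RDS came close to the Swarna control libraries. The averaged fold was 2.66.

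**Figure D2:**
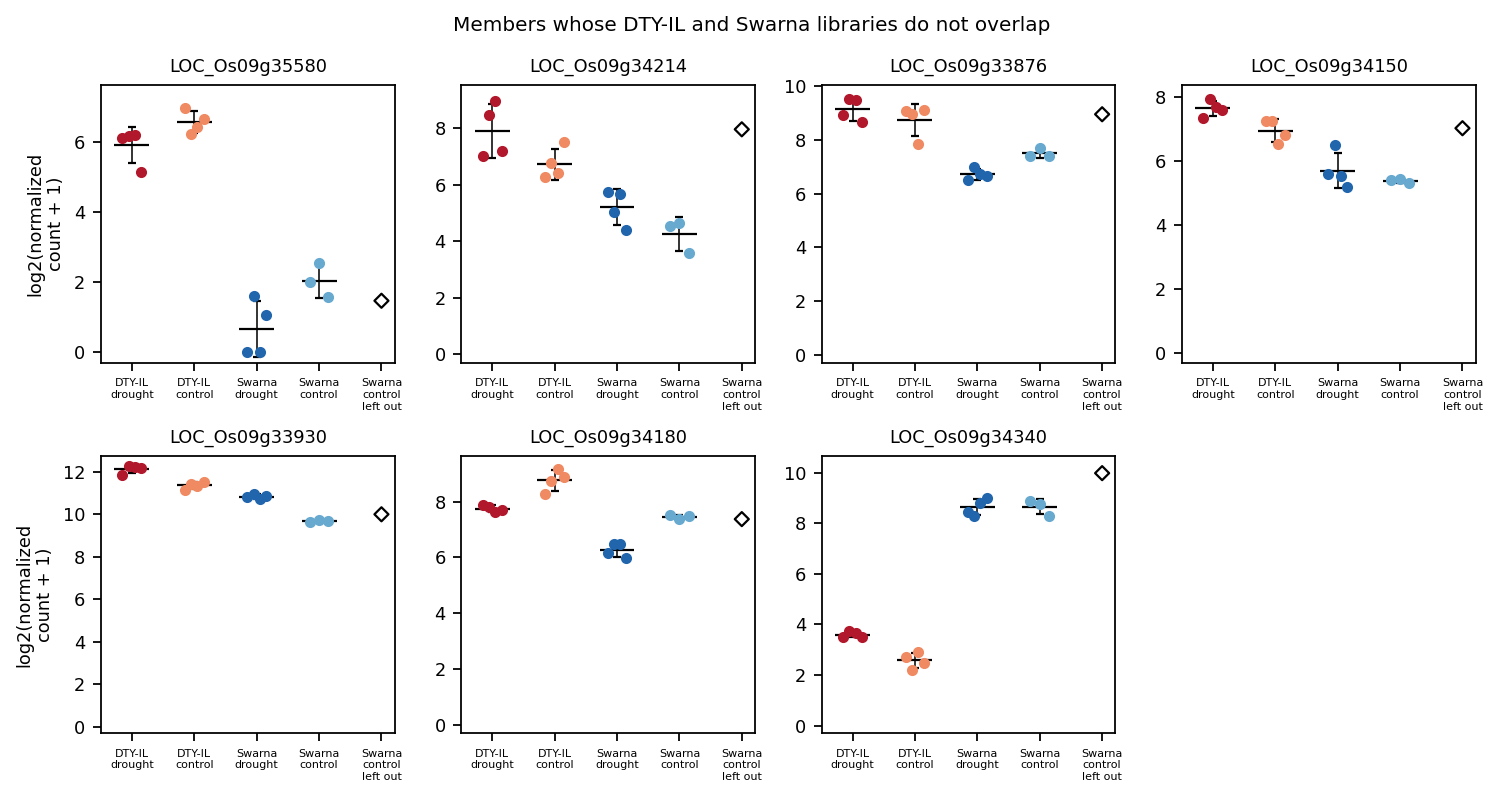
The 7 members whose DTY-IL and Swarna libraries do not overlap. Each panel shows log2(normalized count + 1) per library, with the mean (long line) and SD (error bar) of DTY-IL under RDS, DTY-IL control, Swarna under RDS and Swarna control (4, 4, 4 and 3 libraries). The open diamond is the Swarna control library that was left out, scaled over all 16 libraries, while the points were scaled over 15. In LOC_Os09g35580 the Swarna points are near 0, in LOC_Os09g34340 the order of the genotypes is turned round, and in LOC_Os09g34214, LOC_Os09g33876 and LOC_Os09g34150 the diamond lies with the DTY-IL points.

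The left-out library gave a further look at these 7 members, as it had no part in choosing them. Its values and its side were taken from a scaling over all 16 libraries, while the values of the fitted libraries given above used 15. This library lay on the Swarna side for 4 of the 7, with 1027 normalized counts of LOC_Os09g33930, 165 of LOC_Os09g34180, 1009 of LOC_Os09g34340 and 1.77 of LOC_Os09g35580. For LOC_Os09g33876 (498), LOC_Os09g34150 (129) and LOC_Os09g34214 (247) it lay inside the DTY-IL range. The share on the Swarna side was 57.1%, against 80.4% over all loci whose genotypes did not overlap. This library was below all 15 others for 26 members (27.1%, against 26.1% over all tested loci) and above all 15 for 23 (24%, against 22.5%), so it stood apart here about as often as elsewhere.

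A further 3 members passed the call rule on the average of both treatments while their libraries overlapped between the genotypes, as drought libraries of the one met control libraries of the other. LOC_Os09g34160 had 92.1, 78.5, 107 and 93.1 normalized counts in DTY-IL under RDS, 39.5, 38.2, 41.6 and 46.1 in DTY-IL control, 26.3, 37.0, 41.4 and 32.0 in Swarna under RDS and 16.3, 11.6 and 10.9 in Swarna control. Within each treatment the genotypes were apart. LOC_Os09g34330 had 23.5, 18.3, 24.4 and 9.42 normalized counts in DTY-IL under RDS, 94.5, 70.0, 65.2 and 86.5 in DTY-IL control, 2.02, 2.06, 2.12 and 2.21 in Swarna under RDS and 36.6, 21.2 and 28.7 in Swarna control. Each Swarna library under RDS held just 2 raw counts of this locus. Under RDS the ratio of the summed counts was 9.0 (76 against 8 counts, 95% interval for counting error 4.34 to 21.6). This interval too leaves out the spread between libraries and the choice of the locus. LOC_Os09g34890 had 164, 142, 119.9 and 133 normalized counts in DTY-IL under RDS, 206, 223, 305 and 256 in DTY-IL control, 41.4, 24.7, 23.4 and 27.6 in Swarna under RDS and 169.8, 196 and 115 in Swarna control. For this locus the genotypes were far apart under RDS (log2 difference 2.25 ± 0.24) and closer under control (0.63 ± 0.24).

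Within 1 treatment, more members separated. Under RDS the 4 DTY-IL and 4 Swarna libraries did not overlap for 31 members, 20 higher and 11 lower in DTY-IL. Over all tested loci this held for 13.3%, 6.06% higher and 7.26% lower. Under control the 4 DTY-IL and 3 Swarna libraries did not overlap for 20 members, 17 higher and 3 lower in DTY-IL, against 12.9% over all tested loci, 5.62% higher and 7.26% lower. These comparisons share no library, and 14 members separated in both with the same direction (2.37% over all tested loci). Besides the members already described these were LOC_Os09g33940, LOC_Os09g34060 and LOC_Os09g35690, higher in DTY-IL, and LOC_Os09g33950, lower in DTY-IL. The averaged log2 differences of LOC_Os09g33940, LOC_Os09g35690, LOC_Os09g34060 and LOC_Os09g33950 were 0.70, 0.69, 0.35 and -0.51. All were under the fold of the call rule. Under RDS, LOC_Os09g33940 and LOC_Os09g35690 reached 0.93 and 0.88. LOC_Os09g34060 had 506, 588, 539 and 424 normalized counts in DTY-IL under RDS, 647, 706, 833 and 737 in DTY-IL control, 421, 407, 422 and 402 in Swarna under RDS and 526, 562 and 589 in Swarna control, an averaged log2 difference of 0.35. LOC_Os09g33950 averaged 1268 ± 101 in DTY-IL under RDS, 2172 ± 339.9 in DTY-IL control, 1592 ± 44.5 in Swarna under RDS and 3524 ± 659 in Swarna control (SD, n = 4, 4, 4 and 3).

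**Figure D3:**
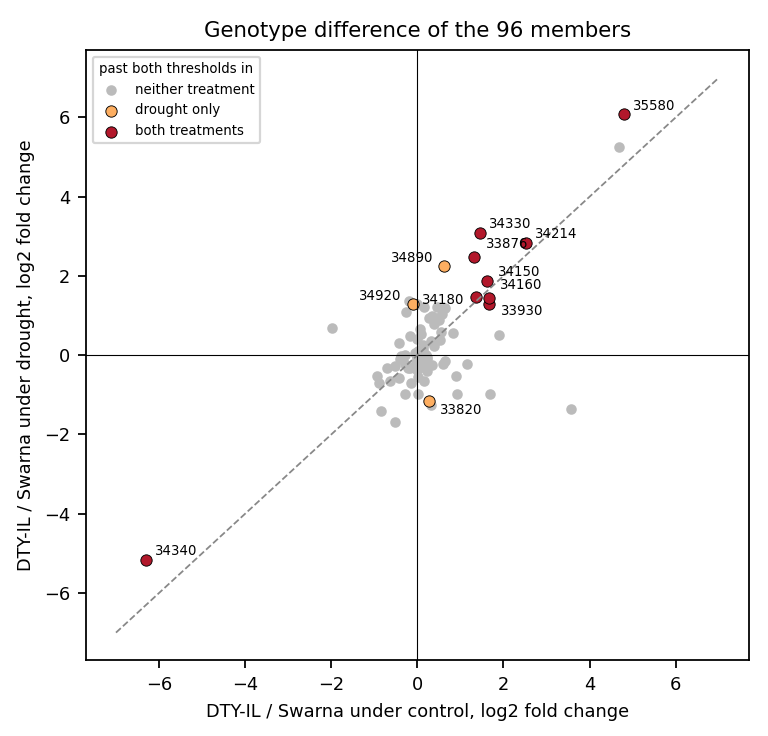
Genotype differences of the 96 members under both treatments. The horizontal axis is the log2 fold change of DTY-IL over Swarna under control and the vertical axis the same under RDS. The dashed line marks equal values. Dark red members passed the call rule under both treatments (9) and orange members under RDS alone (3). The 9 dark red members have the same sign on both axes, and LOC_Os09g33820 (-1.15 under RDS and 0.27 under control) does not.

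LOC_Os09g35770 was the one member with no count in any of the 7 Swarna libraries. In DTY-IL it had 0, 1, 4 and 13 raw counts under RDS and 0, 2, 11 and 0 under control. Most of the 31 counts came from 2 libraries, and 3 DTY-IL libraries had none. The locus thus passed the count minimum through DTY-IL alone. No ratio is given, since that minimum and the choice of the block both bear on it.

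Drought moved members of the block in both directions, more of them down than up, as it did over all tested loci. Averaged over both genotypes, 23 of the 96 members passed the call rule (24%), 8 of them higher and 15 lower under RDS, while over all tested loci 29.8% passed, 11.5% higher and 18.4% lower. On the adjusted p-value alone, 55 members (57.3%) and 54.4% of all tested loci passed. The median absolute drought effect was 0.56 on the log2 scale for the members and 0.71 over all tested loci. By run, 8 of the 48 members of the lower run, 3 of the 16 of the middle run and 12 of the 32 of the upper run passed. All p-values for drought come from the quasi-likelihood test of edgeR and were adjusted over all 33698 loci by the method of Benjamini and Hochberg. Panicles are mixtures of cells, so fewer cells of a type and less RNA per cell cannot be told apart. The marker sums moved with drought as well: the 4 tapetum and anther loci summed to 7.07 to 30.5 CPM in DTY-IL under RDS and 36.2 to 436 CPM in DTY-IL control, and to 3.82 to 9.06 CPM in Swarna under RDS and 47.8 to 73.4 CPM in Swarna control. In the control groups these sums rest mostly on LOC_Os02g02820 and LOC_Os11g37280. LOC_Os08g03682 did not fall in Swarna, with 1.15 to 2.22 CPM under RDS and 0.936 to 1.43 CPM in control. In DTY-IL its treatments overlapped, at 1.47 to 2.4 CPM under RDS and 1.05 to 32.4 CPM in control. LOC_Os07g36460 was at most 4.22 CPM in every group. The 3 of 4 listed leaf loci that were found summed to 591 to 4640 CPM in DTY-IL under RDS and 1740 to 10900 CPM in DTY-IL control, and to 618 to 1740 CPM in Swarna under RDS and 5450 to 10200 CPM in Swarna control. No marker of these 3 lists was at 0 in all libraries, and their part in the drought results was not tested.

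Among the members that rose, LOC_Os09g34910, in the middle run, had the most counts of the whole block. It had 5391, 9967, 8585 and 7145 normalized counts in DTY-IL under RDS and 2640.0, 2615, 2588 and 2439 in DTY-IL control, and it had 6232, 6505, 5402 and 5528 in Swarna under RDS and 1781, 1725 and 1834 in Swarna control. All 8 drought libraries lay far above all 7 control libraries, and the control libraries were tight. The averaged log2 drought effect was 1.66 ± 0.12 (3.17-fold, adjusted p = 2.282e-07).

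LOC_Os09g33820, the first locus of the block, had the largest averaged increase, 1.99 ± 0.18 (adjusted p = 9.157e-07). It had 277, 418, 551 and 300.3 normalized counts in DTY-IL under RDS, 181, 168, 159 and 127 in DTY-IL control, 711, 1016, 1079 and 628 in Swarna under RDS and 128, 129 and 138 in Swarna control. The control libraries of the genotypes were alike, and the Swarna drought libraries lay above all DTY-IL drought libraries. Its log2 drought effect was 1.28 ± 0.23 in DTY-IL and 2.70 ± 0.27 in Swarna.

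LOC_Os09g35910, in the upper run, had 875, 1164, 1599 and 1195 normalized counts in DTY-IL under RDS, 669.9, 529, 580.3 and 822 in DTY-IL control, 2249.7, 2502, 2913 and 1877 in Swarna under RDS and 875, 867 and 636 in Swarna control. Drought and control libraries did not overlap within either genotype, and the averaged effect was 1.24 ± 0.15 (adjusted p = 1.246e-05). LOC_Os09g34160, whose values were given above, rose by the same measure (1.28 ± 0.17, adjusted p = 2.466e-05), to a like extent in DTY-IL (1.16 ± 0.22) and Swarna (1.40 ± 0.26).

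The other 4 members that rose rested on few counts or on few libraries. LOC_Os09g35750 had 5, 7, 5 and 5 raw counts in DTY-IL under RDS, 2, 1, 1 and 2 in DTY-IL control, 7, 6, 6 and 12 in Swarna under RDS and 4, 1 and 1 in Swarna control. Low as these are, every drought library exceeded every control library of its genotype, and the averaged effect was 1.89 ± 0.39 (adjusted p = 0.0008872). LOC_Os09g34990 had 29, 7, 14 and 19 raw counts in DTY-IL under RDS, 9, 10, 7 and 10 in DTY-IL control, 10, 39, 31 and 17 in Swarna under RDS and 5, 1 and 8 in Swarna control, with an effect of 1.71 ± 0.44 (adjusted p = 0.004196). Here the drought and control libraries of DTY-IL overlapped. LOC_Os09g35570 had 2, 1, 4 and 6 raw counts in DTY-IL under RDS, 2, 5, 1 and 2 in DTY-IL control, 4, 8, 6 and 7 in Swarna under RDS and 0, 1 and 1 in Swarna control, with an averaged effect of 1.77 ± 0.53 (adjusted p = 0.01143). In DTY-IL alone the effect was 0.44 ± 0.66. With all 16 libraries the averaged effect was 0.32 (adjusted p = 0.7548), and the call was lost. LOC_Os09g34214 rose by 1.16 ± 0.35 (adjusted p = 0.01196), and this call was lost without DTY-IL drought replicate 3 (0.95, adjusted p = 0.02693), without Swarna control replicate 4 (0.96, adjusted p = 0.05021) and with all 16 libraries (0.16, adjusted p = 0.8551).

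**Figure D4:**
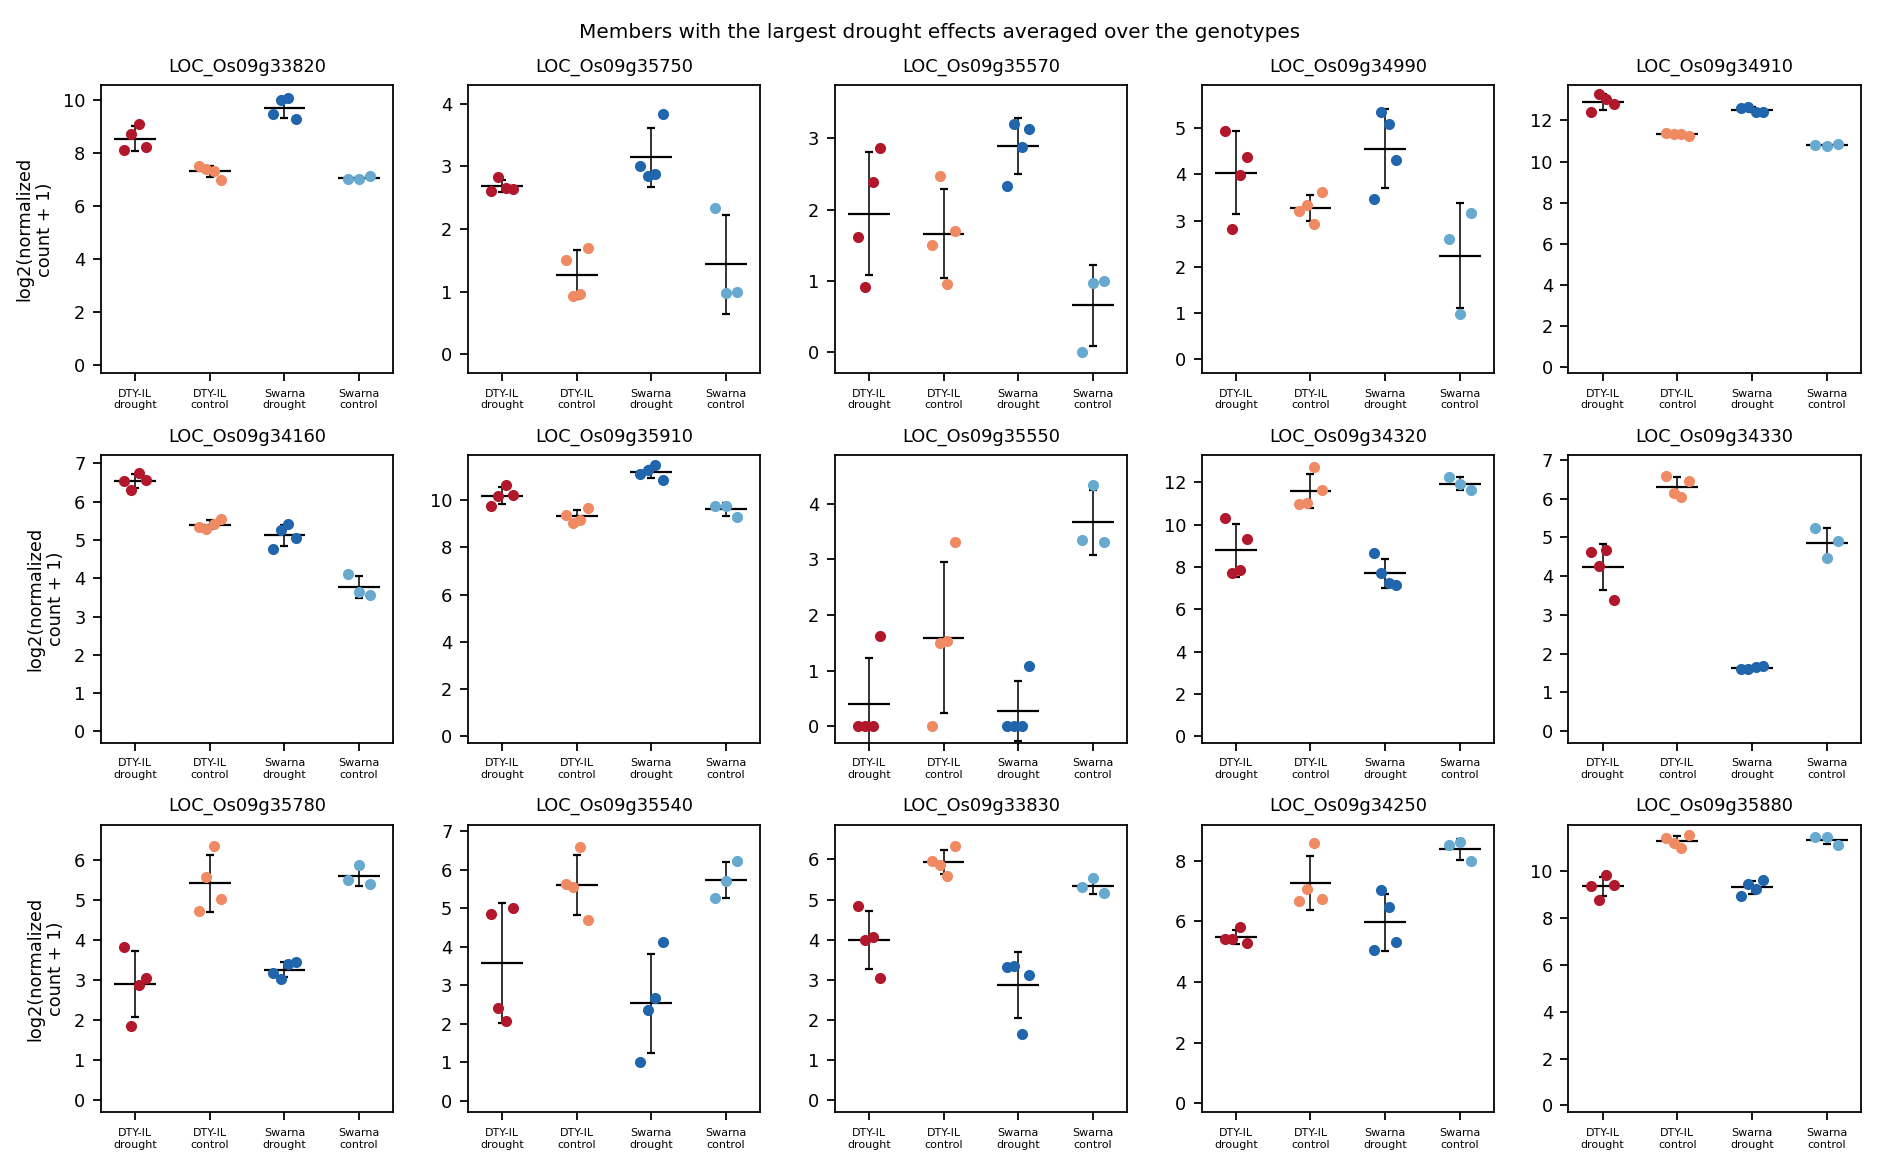
The members with the largest drought effects averaged over the genotypes, without LOC_Os09g34214, which is drawn among the genotype differences. Each panel shows log2(normalized count + 1) per library, with the mean (long line) and SD (error bar) of DTY-IL under RDS, DTY-IL control, Swarna under RDS and Swarna control (4, 4, 4 and 3 libraries). The first 7 panels rose under RDS and the other 8 fell. Panels whose points lie below about 4 on the axis, such as LOC_Os09g35550, LOC_Os09g35570 and LOC_Os09g35750, rest on few counts.

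Of the members that fell, LOC_Os09g35880, in the upper run, differed little between the genotypes. It had 662, 441, 899 and 672 normalized counts in DTY-IL under RDS, 2698, 2338, 2041 and 2953 in DTY-IL control, 485, 694, 603 and 777 in Swarna under RDS and 2798, 2846 and 2218 in Swarna control. The libraries of the genotypes overlapped under each treatment, and drought and control libraries were well apart in both. It fell by 1.97 on the log2 scale (SE 0.15, adjusted p = 3.352e-07), which is a level 3.92-fold lower under RDS.

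LOC_Os09g34320, near the end of the lower run, fell furthest among the well-covered members. It had 1278, 209, 230.3 and 634 normalized counts in DTY-IL under RDS, 2026, 2091, 6699 and 3226 in DTY-IL control, 404, 211, 149.8 and 142 in Swarna under RDS and 4916, 3875 and 3179 in Swarna control. DTY-IL was spread over a wide range under both treatments, with DTY-IL control replicate 3 the highest. Drought and control libraries still did not overlap within either genotype, while the genotypes overlapped under each treatment. The averaged effect was -3.36 ± 0.43 (adjusted p = 2.109e-05), a 10.2-fold lower level.

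Its neighbour LOC_Os09g34330, whose values were given above, fell by 2.88 (SE 0.25, adjusted p = 7.404e-07). The drought effect was -2.06 ± 0.30 in DTY-IL and -3.70 ± 0.39 in Swarna, where it rests on 2 counts per drought library. In the next locus of the order, LOC_Os09g34340, the averaged drought effect was 0.55 ± 0.17 (adjusted p = 0.01179), below the fold needed for a call. In DTY-IL alone this locus passed the call rule (1.12 ± 0.27, adjusted p = 0.01097), and in Swarna its effect was -0.01 ± 0.20.

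LOC_Os09g34250 had 42.0, 41.9, 55.2 and 37.7 normalized counts in DTY-IL under RDS, 101, 132, 383 and 107 in DTY-IL control, 32.3, 131, 88.2 and 38.6 in Swarna under RDS and 368, 387 and 252 in Swarna control. It fell in both genotypes (averaged effect -2.12 ± 0.35, adjusted p = 0.0001719), and DTY-IL control replicate 3 was again far above its group. LOC_Os09g33830, the second locus of the block, had 27.6, 14.8, 15.9 and 7.32 normalized counts in DTY-IL under RDS, 61.5, 57.3, 47.3 and 79.8 in DTY-IL control, 9.09, 9.25, 2.12 and 7.73 in Swarna under RDS and 38.6, 45.3 and 34.7 in Swarna control. Drought and control were apart in both genotypes, with an averaged effect of -2.18 ± 0.30 (adjusted p = 3.788e-05).

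In the upper run, LOC_Os09g35780 had 13.3, 2.62, 6.37 and 7.32 normalized counts in DTY-IL under RDS, 25.7, 46.4, 81.3 and 31.5 in DTY-IL control, 8.08, 7.19, 9.56 and 9.94 in Swarna under RDS and 44.7, 57.8 and 41.6 in Swarna control. The 8 drought libraries lay below the 7 control libraries, and the genotypes overlapped (averaged effect -2.54 ± 0.32, adjusted p = 1.951e-05). LOC_Os09g35540 had 27.6, 4.36, 3.18 and 31.4 normalized counts in DTY-IL under RDS, 48.6, 45.5, 95.5 and 24.7 in DTY-IL control, 1.01, 4.11, 5.31 and 16.6 in Swarna under RDS and 37.6, 51.0 and 73.3 in Swarna control. The DTY-IL drought libraries split into a low and a high pair, and overlapped with control. The averaged effect was -2.34 ± 0.54 (adjusted p = 0.002113). LOC_Os09g35550 had 0, 0, 0 and 2 raw counts in DTY-IL under RDS, 0, 2, 2 and 8 in DTY-IL control, 0, 0, 0 and 1 in Swarna under RDS and 9, 20 and 9 in Swarna control. Summed over the genotypes these were 3 counts under RDS and 50 under control, and most of the control counts were in Swarna. The summed level was 18.2-fold lower under RDS, with a 95% interval for counting error of 5.88 to 91.3. The fitted effect averaged over the genotypes was -3.68 ± 0.86 (adjusted p = 0.002302). In DTY-IL alone it was -2.34 ± 1.18 (adjusted p = 0.1412).

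The remaining 7 members that fell were LOC_Os09g34180, LOC_Os09g34890, LOC_Os09g35580, LOC_Os09g35600, LOC_Os09g35630, LOC_Os09g35810 and LOC_Os09g35850, with averaged effects between -1.11 for LOC_Os09g34180 and -1.64 for LOC_Os09g34890. LOC_Os09g34180, LOC_Os09g34330, LOC_Os09g34890 and LOC_Os09g35580 thus appear in both descriptions, as higher in DTY-IL and as lower under RDS. The drought effect of LOC_Os09g35580 was -0.63 ± 0.37 in DTY-IL (adjusted p = 0.2037), and in Swarna it rests on 0, 2, 0 and 1 raw counts under RDS and 3, 5 and 2 in control. LOC_Os09g34180 fell to a like extent in DTY-IL (-1.05 ± 0.18) and in Swarna (-1.17 ± 0.20).

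Not all abundant members passed the call rule for drought averaged over the genotypes. LOC_Os09g33980 had 3143, 3234, 3164 and 3359.9 normalized counts in DTY-IL under RDS, 2380.3, 3001, 3295 and 2168 in DTY-IL control, 3496, 3995, 2922 and 3551 in Swarna under RDS and 2375, 2034 and 2744 in Swarna control, with an averaged effect of 0.40 ± 0.11 (adjusted p = 0.007272) that was under the fold of the call rule. LOC_Os09g33910 had 1156, 1018, 1324 and 2420.3 normalized counts in DTY-IL under RDS, 4272, 4986, 178 and 6764 in DTY-IL control, 5330.4, 867, 7067 and 2379 in Swarna under RDS and 7609.8, 7985 and 6076 in Swarna control. A single DTY-IL control library, replicate 3, was far below its group, and the Swarna drought libraries fell into a high and a low pair, so that no call was made (-1.17 ± 0.55, adjusted p = 0.08385). LOC_Os09g35890 was split in the same way, with 6159, 1756, 11094 and 2308 normalized counts in Swarna under RDS and 5228, 5460.1 and 4199.6 in Swarna control. In DTY-IL it had 1777, 962, 1718 and 2218 under RDS and 4244, 2956, 1989.5 and 4656 in control. Replicates 1 and 3 of Swarna under RDS were the high pair for both loci.

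Within each genotype, 21 members passed the call rule for drought in DTY-IL, 7 higher and 14 lower under RDS. Over all tested loci 19.8% passed there, 7.46% higher and 12.3% lower. In Swarna 31 members passed, 12 higher and 19 lower under RDS, and over all tested loci 29.5% passed, 11.9% higher and 17.6% lower. Of these, 15 passed in both genotypes in the same direction (15.4% over all tested loci) and 0 in opposite directions (0.0326%). A further 16 passed in Swarna and not in DTY-IL (14% over all tested loci) and 6 in DTY-IL and not in Swarna (4.31%). The sign of the drought effect was the same in both genotypes for 78 members (81.2%, against 81.6% over all tested loci). Whether the drought effects differed between the genotypes was not tested, because that difference is the difference between the genotype comparisons for which the block was picked. LOC_Os09g34920 is an example of a member past the rule in Swarna alone, with 3769, 3979.5, 3469 and 3118 normalized counts in DTY-IL under RDS, 2795, 2887, 3743 and 3764 in DTY-IL control, 2122, 1431, 1038 and 1264 in Swarna under RDS and 3909, 3809 and 2931 in Swarna control. Its drought effect was 0.12 ± 0.20 in DTY-IL (adjusted p = 0.6735) and -1.28 ± 0.21 in Swarna (adjusted p = 0.0003217). This locus also passed between the genotypes under RDS, and the same Swarna drought libraries enter both comparisons.

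**Figure D5:**
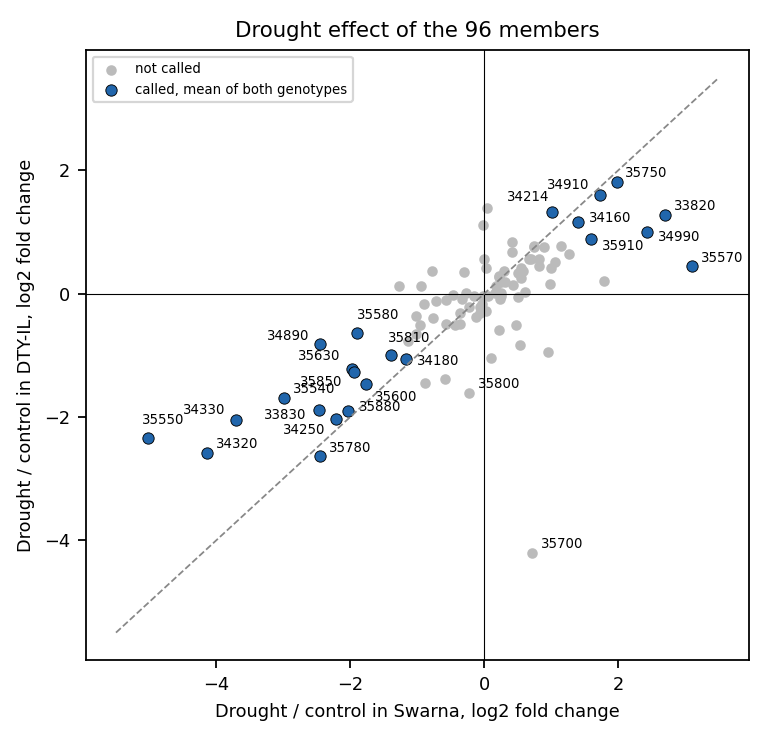
Drought effects of the 96 members in both genotypes. The horizontal axis is the log2 fold change of RDS over control in Swarna and the vertical axis the same in DTY-IL, and the dashed line marks equal values. Blue members passed the call rule averaged over the genotypes (23). The blue members have the same sign on both axes, and LOC_Os09g35700 lies far below the others through 1 DTY-IL control library.

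The count in DTY-IL depended on the libraries used. Dropping replicate 2 of the DTY-IL drought libraries gave 14, dropping replicate 3 of them gave 15, and dropping DTY-IL control replicate 3, the library that stood apart, gave 14. Without this last library 14 members passed in place of 21, of which 13 were among the 21, and over all tested loci 18.3% passed. The 8 members that no longer passed were LOC_Os09g34180, LOC_Os09g34214, LOC_Os09g35600, LOC_Os09g35630, LOC_Os09g35700, LOC_Os09g35800, LOC_Os09g35810 and LOC_Os09g35850, and LOC_Os09g33910 passed only without it. Some of the 8 changed little in size. The log2 effect of LOC_Os09g34180 was -0.90 without the library and -1.05 with it, that of LOC_Os09g34214 was 1.204 and 1.32, and that of LOC_Os09g35850 was -1.11 and -1.28. The effect was also smaller without it for LOC_Os09g35600 (-0.86 and -1.46), LOC_Os09g35630 (-0.51 and -1.22) and LOC_Os09g35810 (-0.67 and -1.001). LOC_Os09g35700 changed most, with 3.07, 7.85, 11.7 and 4.19 normalized counts in DTY-IL under RDS and 4.59, 3.64, 486 and 8.99 in DTY-IL control. Its Swarna libraries had 10.1, 18.5, 26.6 and 14.4 under RDS and 11.2, 12.5 and 7.93 in control. The drought effect of this locus in DTY-IL was -4.21 with the library and 0.24 without it. LOC_Os09g35800 had 3246 normalized counts in the same library and 307 to 727 in the other DTY-IL control libraries, and its effect was -1.61 with it and -0.29 without it. The high tapetum and anther sum of this library is given above, and its part in these values was not tested. Averaged over the genotypes, the number of members past the rule was 22 to 25 with any 1 library left out.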

How the data were processed

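Panicle RNA was sequenced as paired reads. The authors trimmed the reads with Trimmomatic, assigned them to the Nipponbare transcripts of RGAP 7 with Salmon 0.7.2, which corrected for GC content and sequence bias, and added up the transcripts of each locus. The deposited values are estimated counts per locus, given as whole numbers without normalization or filtering. Salmon divides reads between near-identical loci, so counts of such loci are uncertain. The authors also deposited tables of their own 4 comparisons (fold changes and p-values), which were not used. The count columns give a genotype, a treatment and a number.

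Loci with at least 10 counts over 15 libraries (33698 of 55801) were fitted in edgeR 4.0.16 under R 4.3.3 with TMM factors, 1 coefficient per group and the quasi-likelihood test, with Benjamini-Hochberg adjustment. A call needed adjusted p ≤ 0.05 and a log2 fold change of 1 or more in size. Normalized counts are counts divided by the effective library size and multiplied by its mean. Those of the left-out library come from a separate scaling over all 16 libraries. SEs are the log2 fold change divided by the root of the F statistic. For genotype differences they do not allow for the choice of the block and are no test. The code was tested on simulated data. Swarna control replicate 3 was left out, as the definition of the block does, except in 1 alternative. Replicates were taken as independent, as the study describes them. The study's methods describe pots in randomized complete blocks, and the numbers in the sample titles recur between groups, but the count columns could not be tied to these numbers, so no block entered the fits. Intervals cover counting error only, and total counts of 24677520 to 31080042 per library set the precision.

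The members, marker lists and rules were chosen with earlier results of these data known. Named members are the 7 whose DTY-IL and Swarna libraries do not overlap with a mean of at least 50 normalized counts in the higher genotype, up to 8 with the largest drought effect in each direction, the 5 with most counts, and the edges. Others named were chosen after their values were seen. Of 2 further rules of that kind, members absent from 1 genotype with a mean of at least 20 counts in the other gave 0 members, and annotated families could not be formed, since the reference table at hand holds no RGAP identifiers. Marker identities are from general knowledge. Alternatives were DESeq2 1.42.0, RLE factors, other count filters, all 16 libraries, fits of the 2 compared groups alone, and leaving out each library. Figures were drawn with matplotlib 3.10.9.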

Additional observations from a re-analysis of the deposited data

Results flagged for a closer look

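In 7 of the 81 groups of 4 libraries formed by the named members, 1 library stood apart from the other 3 by Dixon's criterion at its 95% value. For normally distributed values chance gives about 1 in 20 groups. The criterion was applied to normalized counts without logs. A group with counts in 1 library alone always meets it, as both groups of LOC_Os09g35550 did, so that rate is a rough guide. In DTY-IL control replicate 3, LOC_Os09g33876 was low at 230.61 normalized counts, and LOC_Os09g34250 and LOC_Os09g35940 were high at 382.77 and 945.12. In DTY-IL drought replicate 4, LOC_Os09g35580 was low at 34.531, and LOC_Os09g35550 was above 0 in this library of the group alone, at 2.0928. In Swarna drought replicate 4, LOC_Os09g35550 was likewise above 0 in that library alone, at 1.1041, and LOC_Os09g35750 was high at 13.249. Over all 96 members, 19 of 288 groups (6.6%) had such a library, and 7 of the 19 were DTY-IL control replicate 3.

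The Swarna control library that was left out held at least 2-fold more normalized counts than any of the 15 fitted libraries for 9 members (9.38%) with at least 50 normalized counts there, and for 7.99% of all tested loci. These were LOC_Os09g33850 at 771.55, LOC_Os09g34100 at 11258, LOC_Os09g34140 at 3077.3, LOC_Os09g34230 at 521.46, LOC_Os09g34280 at 8607.7, LOC_Os09g34340 at 1009.2, LOC_Os09g34847 at 53.211, LOC_Os09g35880 at 10181 and LOC_Os09g35940 at 5454.1. Among them LOC_Os09g35880 was one of the members that fell under RDS in both genotypes, and LOC_Os09g34340 was the member lower in DTY-IL. Other members were nearly missing there, with 7 raw counts of LOC_Os09g34920, 5 of LOC_Os09g34930 and 1 of LOC_Os09g33940.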

How the results depend on the processing

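With all 16 libraries, 13 members in place of 21 passed for drought in DTY-IL, and 5 in place of 9 for the genotype difference under control; the cause was not tested. With any 1 library left out, the members past the rule were 22 to 25 for drought averaged over the genotypes, 14 to 21 for drought in DTY-IL (14 without DTY-IL control replicate 3 and 14 without DTY-IL drought replicate 2), 27 to 31 for drought in Swarna, 12 to 16 for genotype under RDS and 5 to 9 for genotype under control. The last count was 5 without Swarna control replicate 1, 2 or 4, each of which leaves 2 Swarna control libraries. The other alternatives gave 20 to 25, 13 to 21, 22 to 31, 9 to 12 and 5 to 9 in the same order. For single named loci, 431 of 436 alternative values kept their direction and their side of the thresholds or stayed within the replicate spread, and 0 changed sign. The 4 that lost their call were 3 for LOC_Os09g34214 and 1 for LOC_Os09g35570, with values given in the report, and the averaged genotype difference of LOC_Os09g34214 was 1.70 with all 16 libraries. Under edgeR's filterByExpr, LOC_Os09g35550, LOC_Os09g35570 and LOC_Os09g35750 were not tested. No paired analysis was possible because count column numbers, 1 to 4, do not match those in the sample titles, although pots stood in blocks. No sample title says that its number names a pot or a block. Depth limits the loci at or below 3 counts per library in a group, among them LOC_Os09g34330 and LOC_Os09g35580 in Swarna under RDS and LOC_Os09g35550 in both drought groups.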
